A study of Mus musculus with 6 samples.

Results

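Primary osteoblasts, the bone-forming cells, carry receptors for many of the hormones that govern the skeleton. The genes described here were 8 receptor genes, Pth1r, Ghr, Lepr, Vdr, Rxra, Nr3c1, Thra and Esr1, together with Pthlh, which encodes a ligand of the PTH1R protein. They were chosen by name from the gene table, and all 9 were found among its 55471 genes. RNA was sequenced from calvarial osteoblasts of 3-day-old C57BL/6 mice, with 3 libraries labelled WT (wild type) and 3 labelled TCKO. TCKO mice carried Prx1-Cre with Tet1 fl/fl, Tet2 fl/fl and Tet3 fl/fl, and the exact alleles of the WT mice were given no further than wild type. Prx1-Cre is a recombinase expressed in limb and part of the skull mesenchyme, so cells of the culture without the recombinase would keep the Tet genes, which encode the enzymes that oxidise methylated cytosine.

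Peptide hormones and cytokine-like hormones bind receptors at the cell surface. Parathyroid hormone (PTH) and the related PTHrP act through PTH1R and cyclic AMP, growth hormone and leptin through receptors that use the JAK and STAT proteins. Steroid hormones, thyroid hormone and active vitamin D bind nuclear receptors, which are transcription factors, and several of these, among them the vitamin D and thyroid hormone receptors, pair with a retinoid X receptor such as RXRA. In bone, PTH and vitamin D regulate mineral balance and osteoclast formation, whereas glucocorticoids in excess reduce bone formation.

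Total counts lay between 8019999 and 10177214 per library, and 3 counts, the upper limit that an observed count of 0 allows, corresponded to 0.295 to 0.374 CPM (counts per 1000000 counts of a library, elsewhere with library sizes scaled by the TMM method). These limits cover counting error only. The libraries numbered 3 stood apart in both genotypes. Replicates 1 and 2 differed by a biological coefficient of variation of 3.00% in WT and 3.62% in TCKO, against 16.4% to 18.4% for pairs with replicate 3, whose share of mitochondrial counts was 2.22% and 2.47% against 1.11% to 1.24% elsewhere. TCKO replicate 3 also had 4583 Xist counts and 0 Ddx3y counts, whereas the other 5 libraries had 1 to 4 Xist counts. TCKO replicate 3 thus had the pattern of female cells, and the other 5 libraries had that of male cells. It therefore did not come from the same animals as TCKO replicates 1 and 2. Nothing in the labels says that the libraries came from separate animals or cultures. The p-values measure the spread between libraries, part of which may be technical. The counts of the targeted genes cover all exons, deleted or not, and gave log2 fold changes of -0.97 for Tet1 (adjusted p = 0.0065), -0.14 for Tet2 (0.545) and 0.51 for Tet3 (0.0074). Osteoblast genes such as Col1a1 and Runx2 were abundant, whereas Bglap (osteocalcin, which has near-identical copies in the mouse) had 0 to 2 counts and Dmp1 0 to 3.

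Of the 9 genes, Lepr, Rxra and Nr3c1 were lower in TCKO and the rest did not pass the test or could not be tested. Lepr, the leptin receptor, was about 4.63 times lower, and Rxra and Nr3c1 were 1.36 and 1.33 times lower. Genotype was tested with edgeR's quasi-likelihood test with Benjamini-Hochberg adjustment over the 13826 tested genes, which is the source of every adjusted p here unless another tool is named. It included 7 of the 9 genes, since Esr1 and Pthlh had too few counts. Of these 7, 3 passed at an adjusted p under 0.05, all of them lower. Over all tested genes 17.7% passed, 8.63% lower and 9.07% higher. The CPM ranges of the genotypes did not overlap for 3 of the 7, against 38.3% of all tested genes. The median log2 fold change was -0.44 for the 7 and 0.0002 for all tested genes. At more than 2-fold, 1 of the 7 genes passed, Lepr, against 3.19% of tested genes lower and 3.16% higher. With the replicate number as a block, Thra passed too, making 4. The share of all tested genes that passed in that fit was not counted. With replicates 1 and 2 summed and the block kept, Thra did not pass, and Lepr was the only gene of the 7 to pass. Without both replicate 3 libraries the log2 fold changes were -2.42 for Lepr, -0.36 for Rxra and -0.49 for Nr3c1.

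**Figure D1:**
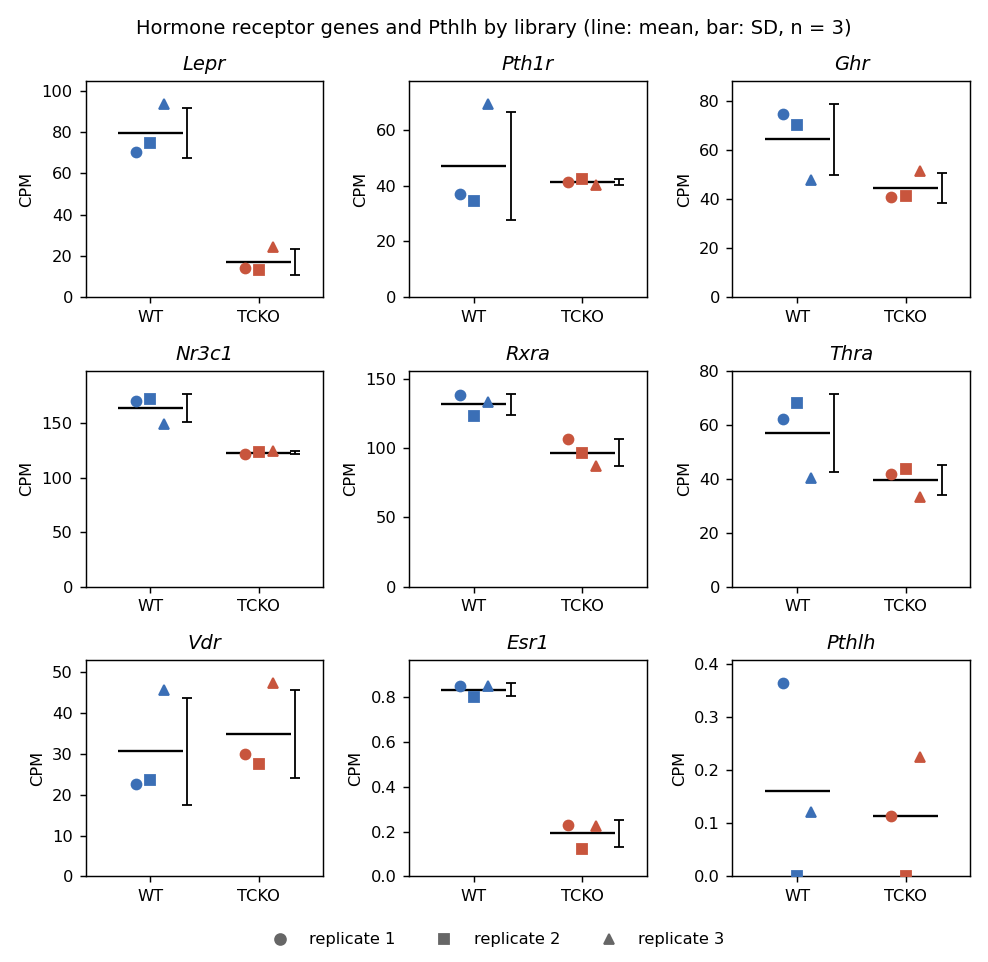
CPM of each gene in each library (y axis, linear and starting at 0) for WT in blue and TCKO in red, with symbols for replicates, lines for means and bars for SD (n = 3, none drawn for Pthlh). Lepr lies between 70.5 and 93.5 CPM in WT and between 13.1 and 24.3 in TCKO, while Pth1r and Vdr overlap.

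Levels were compared between genes per length, as RPKM (CPM divided by exon length in kilobases). In WT, Nr3c1 was at 21.4 ± 1.69 RPKM and Rxra at 20.9 ± 1.19 (SD, n = 3), the highest means of the 9. Pth1r followed at 16.1 ± 6.60, Thra at 12.4 ± 3.16 and Lepr at 11.3 ± 1.74 RPKM. Ghr was at 7.11 ± 1.59 and Vdr at 5.41 ± 2.32 RPKM. Pthlh and Esr1 were both at or under 0.0997 RPKM. The WT ranges of neighbours in this order overlapped, except between Lepr and Ghr and between Vdr and Pthlh. In TCKO the order was the same for the first 4 genes, but Lepr, at 2.43 ± 0.89 RPKM, stood at rank 7, after Vdr (6.18 ± 1.90) and Ghr (4.94 ± 0.67).

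**Figure D2:**
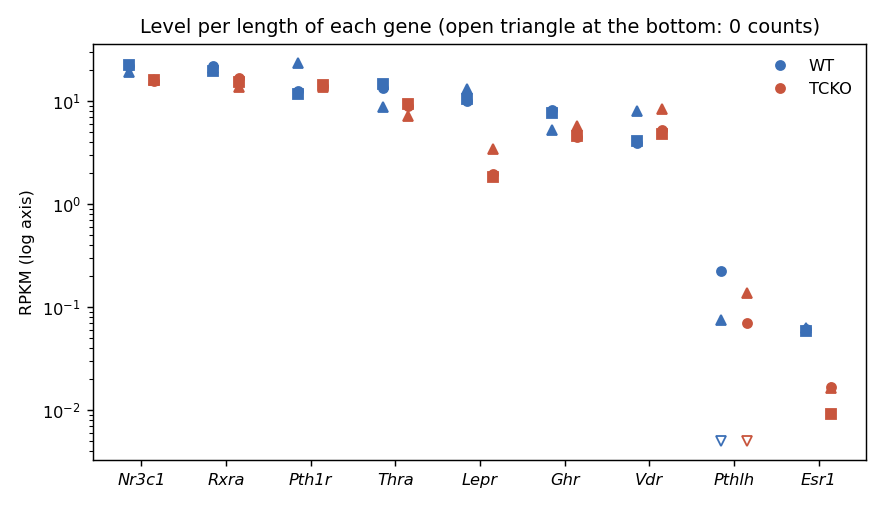
RPKM of each gene (log axis) per library, in the order of WT means, WT in blue and TCKO in red, with open triangles at the bottom for libraries with 0 counts. Lepr is at 11.3 RPKM in WT against 2.43 in TCKO, and Pthlh and Esr1 lie far below the other 7 genes.

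To set the genes in the context of DNA methylation, which TET enzymes oppose, the CpG dinucleotides, the usual sites of methylation, were counted in the 250 bases before the annotated starts. Methylation itself was not measured here. RefSeq promoter sequences (GRCm38.p6) were used for 7 of the 9 genes, with 13 windows. Nr3c1, also lower in TCKO, was left out, and Thra had no window, so the counts of letters do not cover them. The windows of Lepr and Rxra, which were both lower in TCKO, are shown for their difference in CpG content, with each CpG in capitals.
Lepr, chr4:101717157-101717406, plus strand: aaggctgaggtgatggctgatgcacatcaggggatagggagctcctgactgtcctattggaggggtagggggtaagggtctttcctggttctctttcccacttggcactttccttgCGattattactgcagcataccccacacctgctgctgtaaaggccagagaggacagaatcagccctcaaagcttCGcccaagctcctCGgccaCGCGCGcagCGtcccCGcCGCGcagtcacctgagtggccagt
Rxra, chr2:27676951-27677200, plus strand: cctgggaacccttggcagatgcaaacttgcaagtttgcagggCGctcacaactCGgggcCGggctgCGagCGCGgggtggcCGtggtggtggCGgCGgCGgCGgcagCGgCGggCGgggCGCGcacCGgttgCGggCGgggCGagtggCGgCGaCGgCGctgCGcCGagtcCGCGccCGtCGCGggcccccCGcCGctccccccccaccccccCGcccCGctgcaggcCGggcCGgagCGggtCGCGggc
The Lepr window held 10 CpG, and 37.8% of all 32851 promoter windows held at least as many. The Rxra window, which lies within the span of Rxra in the deposited table, held 40 CpG, and 1.31% of all windows held at least as many, against a median of 6. A further annotated start of Rxra (chr2:27709042-27709291) had only 1 CpG. The letters TGTGGT, the core of the motif bound by RUNX factors, were searched on both strands and were in none of the 13 windows, against 14.0% of all windows. The letters AGGTCA, to which many nuclear receptors bind, were searched in the same way. They occurred 2 times in this further Rxra window and in no other of the 13, against 14.0% of all windows. These are descriptions of letters and not of binding.

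Pthlh (chromosome 6, 147252101 to 147264183, GRCm38) encodes PTHrP, a locally acting ligand of PTH1R that is prominent in cartilage. It had 3, 0 and 1 counts in WT against 1, 0 and 2 counts in TCKO. Both genotypes were at or under the limit of 3 counts, so no difference was detectable at this depth, and no fold is given.

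Pth1r (chromosome 9, 110722085 to 110747145), the receptor that PTH shares with PTHrP, was expressed in all 6 libraries. Its level was 37.2, 34.7 and 69.3 CPM in WT against 41.6, 42.5 and 40.2 CPM in TCKO. WT replicate 3 was the highest library and the genotypes overlapped. The log2 fold change was -0.18 ± 0.25 (SE, 95% interval -0.75 to 0.39), with an adjusted p of 0.657. Without WT replicate 3 it was 0.21 (adjusted p = 0.116), the opposite direction, and without both replicate 3 libraries it was 0.23 (adjusted p = 0.0255). Over the exons, 3.25% of Pth1r overlapped Myl3 on the other strand, which had 13 counts in all libraries together.

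Signalling genes downstream of PTH1R were read from a list of 33 PTH and PTHrP pathway genes, of which 28 were tested. Of these, 2 were lower (Hdac4, a repressor that restrains MEF2 factors, and Mef2c, which encodes such a factor) and 2 were higher (Pde4d, which breaks down cyclic AMP, and Areg). With the replicate block 2 were lower and 5 higher, with Tnfsf11, Nr4a1, an early PTH response gene (adjusted p = 0.0066, and 0.399 without the block), and Hdac5 (0.0313, and 0.0617 without the block) added. The median log2 fold change of the tested genes was -0.10. Without the block, 8.63% of all tested genes were lower and 9.07% higher, and the shares with the block were not counted. Hdac4 lost its call in all 6 fits with a library left out, and Mef2c and Pde4d each in 3 of 6. Areg, which encodes the EGF receptor ligand amphiregulin, had 0, 1 and 0 counts in WT against 11, 15 and 15 in TCKO. The ratio of summed TCKO to WT counts was 42.3, with an exact 95% counting interval from 7.18 to 1711 (adjusted p = 0.0028). Tnfsf11, which encodes RANKL, a driver of osteoclast formation and a target of PTH and vitamin D signalling, was at 3.03, 3.59 and 5.94 CPM in WT against 6.96, 5.47 and 13.9 CPM in TCKO. Its log2 fold change of 1.08 ± 0.40 did not pass (adjusted p = 0.106), but passed with the replicate block (0.0123). With replicates 1 and 2 summed it passed when the block was kept (0.0489) and not without the block (0.305). Rgs2, which dampens G protein signalling, had a log2 fold change of -0.21 (adjusted p = 0.634).

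Ghr (chromosome 15, 3317760 to 3583492), the growth hormone receptor, was at 74.9, 70.3 and 48.0 CPM in WT against 41.0, 41.4 and 51.7 CPM in TCKO. WT replicate 3 lay below TCKO replicate 3, so the genotypes overlapped. The log2 fold change was -0.53 ± 0.17 (95% interval -0.93 to -0.12), which did not pass (adjusted p = 0.0759). Within replicate 3 alone the log2 difference was 0.10 (of CPM plus 2), and over replicates 1 and 2 it was -0.79. Without WT replicate 3 the adjusted p was 0.00785, without TCKO replicate 3 it was 0.0418, and with DESeq2 it was 0.0409. Of 13 tested genes in a growth hormone pathway list of 15, 0 passed by edgeR, with a median log2 fold change of -0.03. At an unadjusted p under 0.05 there were 2, and DESeq2 called 0, but the shares of all tested genes by these rules were not counted. With the replicate block Igf1 was lower and Shc1, an adaptor gene, higher. Igf1, the growth hormone effector gene, was at 157, 169 and 57.6 CPM in WT against 81.6, 86.0 and 54.5 CPM in TCKO. This was a log2 fold change of -0.79 ± 0.37 (adjusted p = 0.185, and 0.0304 with the block). Socs2, a feedback inhibitor induced by growth hormone, had a log2 fold change of 0.12 (adjusted p = 0.773).

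Lepr (chromosome 4, 101717404 to 101815352), the leptin receptor, is also used as a marker of stromal cells in adult bone marrow. Its counts were 582, 746 and 771 in WT against 122, 105 and 217 in TCKO. In CPM it was at 70.5, 74.4 and 93.5 in WT against 13.9, 13.1 and 24.3 in TCKO. Every TCKO library was below every WT library. The mean was 79.5 ± 12.3 CPM in WT against 17.1 ± 6.28 CPM in TCKO, and the log2 fold change was -2.21 ± 0.23 (SE, 95% interval -2.75 to -1.67, adjusted p = 0.000928). The log2 difference (of CPM plus 2) was -2.27 over replicates 1 and 2 and -1.86 within replicate 3. Lepr passed with all 18 alternative settings, in which the log2 fold change lay between -2.55 and -2.05, and the highest adjusted p was 0.0337, with replicates 1 and 2 summed. No gene with counts shared exons with Lepr.

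Genes of the leptin pathway other than the receptor did not pass the test. Of 8 tested genes in a list of 9, including Jak2 and Stat3, 0 passed by edgeR, with a median log2 fold change of 0.02. An unadjusted p under 0.05 was found for 2 and DESeq2 called 0, and the shares of all tested genes by these rules were not counted. With the replicate block Leprot was lower and Ptpn1, the gene of a phosphatase that restrains leptin signalling, was higher. Leprot, whose protein affects the traffic of the receptor, was at 172, 168 and 148 CPM in WT against 133, 139 and 135 CPM in TCKO. The genotypes did not overlap, but the log2 fold change of -0.26 ± 0.08 did not pass (adjusted p = 0.0580, and 0.0487 with the block).

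Because bulk RNA sums over cells, fewer cells of a type cannot be told apart from less RNA per cell, and markers of other cell types moved with genotype as well. Chondrocyte markers summed to 6356 to 8240 CPM in WT against 740 to 1009 in TCKO, and 8 of 9 tested were lower, with Col2a1 counts from 50301 to 62192 in WT against 5332 to 7387 in TCKO. Of 7 tested markers of Lepr-positive stromal cells in a list of 8, 2 were lower and 3 higher, among them Cxcl12, and the sum was 622 to 746 CPM in WT against 913 to 948 in TCKO. Adipoq was at 0 in every library. Osteoblast markers summed to 40828 to 43675 CPM in WT against 22303 to 37061 in TCKO, with 5 lower and 1 higher of 10 tested. Of 8 tested macrophage markers 2 were lower (all 8 with the replicate block), and the sum was 402 to 756 CPM in WT against 161 to 571 in TCKO. Adipocyte markers summed to 41.1 to 59.9 CPM in WT against 23.0 to 33.4 in TCKO, with 1 of 3 tested lower and Plin1 at 0. Endothelial markers summed to 2.10 to 3.27 CPM in WT against 34.5 to 95.1 in TCKO. Only Kdr of the 6 had enough counts to be tested, and it was higher (log2 fold change 6.12). Muscle markers summed to 6.59 to 20.0 CPM in WT against 34.8 to 78.1 in TCKO, with 1 of 2 tested higher and Myf5 and Pax7 at 0. Over all tested genes 8.63% were lower and 9.07% higher without the block, and the shares with the block were not counted. The part of any of these marker differences in the receptor values was not tested.

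**Figure D3:**
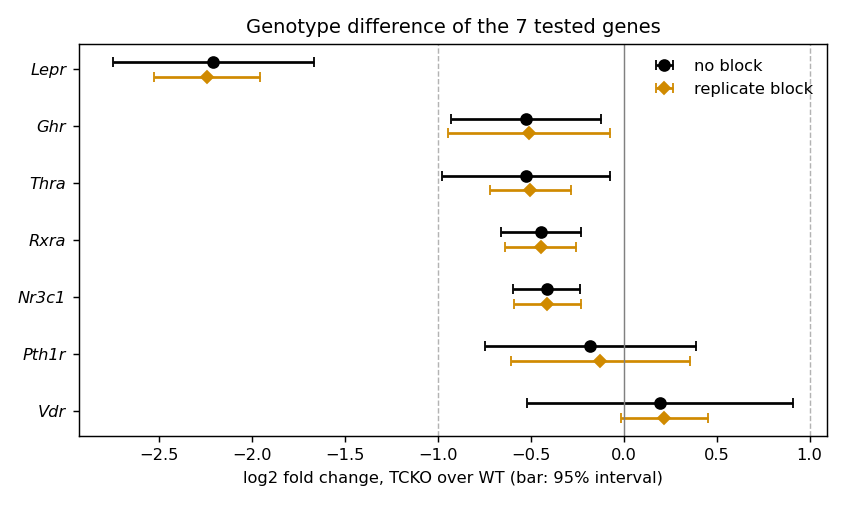
Log2 fold change of TCKO over WT for the 7 tested genes, with 95% intervals, without a block (black circles) and with the replicate number as a block (orange diamonds). Lepr lies at -2.21, past the dashed line at 2-fold, and Vdr is the only gene above 0, with an interval from -0.52 to 0.91.

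Vdr (chromosome 15, 97854425 to 97910630), the vitamin D receptor, was at 22.5, 23.6 and 45.7 CPM in WT against 30.0, 27.5 and 47.2 CPM in TCKO. Replicate 3 was the highest library of each genotype, and the genotypes overlapped. The log2 fold change was 0.20 ± 0.31 (95% interval -0.52 to 0.91, adjusted p = 0.708). Without TCKO replicate 3 it was -0.08, and without both replicate 3 libraries it was 0.32 (adjusted p = 0.00987).

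Rxra (chromosome 2, 27676440 to 27762957) encodes the retinoid X receptor alpha, the common partner of VDR and of other nuclear receptors. It was at 138, 123 and 133 CPM in WT against 107, 96.5 and 86.9 CPM in TCKO. All TCKO libraries were below all WT libraries. The log2 fold change was -0.44 ± 0.09 (95% interval -0.66 to -0.23, adjusted p = 0.0155), to 73.5% of the WT level. The call was lost without WT replicate 1 (adjusted p = 0.0720) or TCKO replicate 2 (0.0632), and when replicates 1 and 2 were summed (0.125). Of the other retinoid X receptors, Rxrb had a log2 fold change of 0.12 (adjusted p = 0.418), and Rxrg had 2 counts in each genotype, all in replicate 3.

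Most vitamin D pathway genes did not pass the test. Of 15 tested genes in a list of 22, 11 did not pass, 1 was lower (the coactivator gene Ncoa3, log2 fold change -0.61, adjusted p = 0.0090, with 1.95% of its exons overlapping Sulf2 on the other strand) and 3 were higher, among them Lrp2 and Spp1, with a median log2 fold change of 0.006, against 8.63% lower and 9.07% higher over all tested genes. Lrp2, which encodes megalin, a receptor that takes up the vitamin D binding protein in the kidney, had 52, 80 and 41 counts in WT against 412, 376 and 670 in TCKO, with no overlap. The fitted log2 change was 3.12 ± 0.25 (adjusted p = 0.000284). Spp1, the gene of osteopontin and a vitamin D target, was at 897, 845 and 1762 CPM in WT against 8915, 9270 and 3311 CPM in TCKO (log2 fold change 2.62 ± 0.44, adjusted p = 0.00669, and 0.123 with replicates 1 and 2 summed). Cyp24a1, which encodes the enzyme that degrades active vitamin D and is a strong target of VDR, had 1 count in all 6 libraries together.

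Nr3c1, the glucocorticoid receptor gene, was at 170.5, 172.7 and 149.2 CPM in WT against 121.7, 123.4 and 124.4 CPM in TCKO. The TCKO libraries lay close together and below every WT library. The log2 fold change was -0.41 ± 0.08 (95% interval -0.60 to -0.23, adjusted p = 0.0102), to 75.0% of the WT level. The adjusted p was 0.0522 without WT replicate 1, 0.0540 without WT replicate 2 and 0.0509 without TCKO replicate 1. It was 0.188 with replicates 1 and 2 summed.

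The genes of the chaperone complex that holds the glucocorticoid receptor were higher in TCKO. All 5 tested members of this group of 6 (the sixth, the mineralocorticoid receptor gene Nr3c2, was not tested) were higher, against 9.07% of all tested genes. They were Hsp90aa1 and Hsp90ab1, which encode HSP90 proteins, Ptges3, which encodes the cochaperone p23, and Fkbp4 and Fkbp5, which encode immunophilins. Hsp90aa1 was at 232, 241 and 281 CPM in WT against 385, 385 and 384 CPM in TCKO (log2 fold change 0.61 ± 0.09, adjusted p = 0.0034). Fkbp5, a feedback inhibitor of the receptor that glucocorticoids induce, was at 11.3, 12.6 and 14.7 CPM in WT against 21.0, 22.5 and 21.8 CPM in TCKO (log2 fold change 0.76 ± 0.13, adjusted p = 0.0065). All 5 lost the call when replicates 1 and 2 were summed (adjusted p from 0.0694 to 0.295), and Hsp90ab1 also in 4 of the 6 fits with a library left out. These proteins serve many client proteins other than this receptor.

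Glucocorticoid response genes did not move together. Of 10 tested in a group of 12, 2 were lower and 2 higher, Fkbp5 being counted here too. Tsc22d3, which encodes GILZ, an anti-inflammatory target of the receptor, was at 89.6, 95.4 and 60.0 CPM in WT against 33.3, 26.5 and 28.5 CPM in TCKO. This was a log2 fold change of -1.47 ± 0.18 (adjusted p = 0.00176), and it passed with all 18 alternatives. Dusp1, which encodes a phosphatase of MAP kinases, was at 325, 297 and 489 CPM in WT against 73.4, 79.9 and 186 CPM in TCKO (log2 fold change -1.71 ± 0.37, adjusted p = 0.0172). The call was lost when TCKO replicate 1 or TCKO replicate 2 was left out. Mt2, a metallothionein gene, had 3, 5 and 11 counts in WT against 21, 24 and 20 in TCKO (log2 fold change 1.79, adjusted p = 0.0296), and the call was lost in 4 of the 6 fits with a library left out. Hsd11b1, which encodes the enzyme that regenerates active glucocorticoid, had 12, 27 and 6 counts in WT against 0, 2 and 7 in TCKO, and was not tested. The ratio of summed counts was 0.206 (exact 95% counting interval 0.0887 to 0.427), and the genotypes overlapped. Nr3c2 had 13, 16 and 3 counts in WT against 3, 5 and 3 in TCKO. Over the whole list of 20 genes, 15 were tested, and 2 were lower and 6 higher, with a median log2 fold change of 0.02. Of all tested genes, 8.63% were lower and 9.07% higher.

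**Figure D4:**
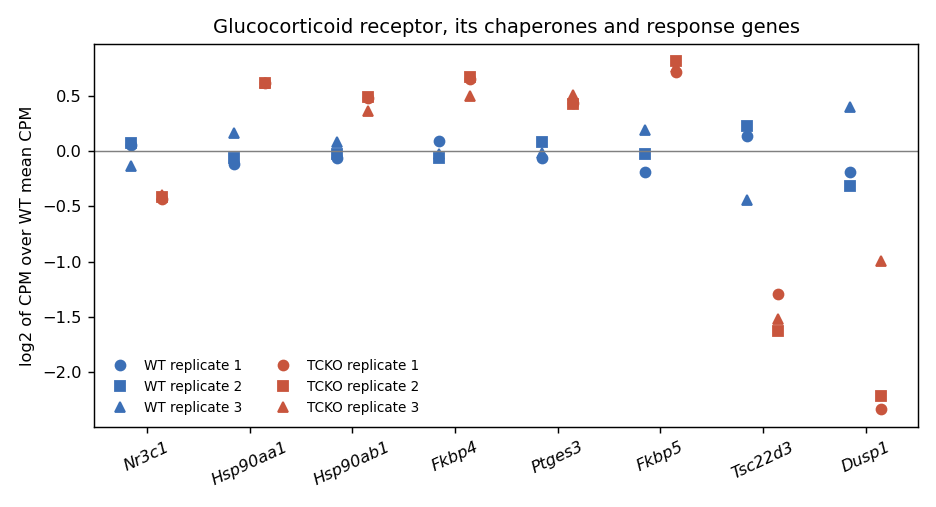
Log2 of CPM over the WT mean for Nr3c1, 5 chaperone complex genes and 2 response genes, in each WT (blue) and TCKO (red) library, with symbols for replicates. The 5 chaperone genes lie above 0 in every TCKO library, whereas Nr3c1, Tsc22d3 and Dusp1 lie below.

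Thra (chromosome 11, 98740638 to 98769006), the gene of thyroid hormone receptor alpha, the main thyroid hormone receptor of bone, was at 62.4, 68.2 and 40.5 CPM in WT against 41.9, 43.8 and 33.4 CPM in TCKO. Replicate 3 was the lowest library of each genotype, and WT replicate 3 lay below TCKO replicates 1 and 2. The log2 fold change was -0.53 ± 0.20 (95% interval -0.98 to -0.07), which did not pass (adjusted p = 0.106), but passed with the replicate block (0.0099) and without WT replicate 3 (0.00881). With replicates 1 and 2 summed it did not pass, either with the block (0.0925) or without it (0.407). The log2 difference (of CPM plus 2) was -0.59 over replicates 1 and 2 and -0.26 within replicate 3. The end of Thra overlaps Nr1d1 on the other strand over 5.70% of its exons, and Nr1d1 had 1883 counts against 2549 for Thra. Since the strand setting of the counting was not stated, reads from this stretch could not be assigned with certainty. Thrb, the other thyroid hormone receptor gene, had a log2 fold change of -0.26 (adjusted p = 0.667).

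Genes of the enzymes and transporters that set the thyroid hormone level within cells changed in both directions. Of 6 tested in a group of 9, 3 were lower (Dio3, Slc7a8 and Slc7a5) and 1 higher (Dio2). Over all tested genes 8.63% were lower and 9.07% higher. Dio3, which encodes the deiodinase that inactivates thyroid hormone, had 308, 364 and 101 counts in WT against 28, 16 and 10 in TCKO. The fitted log2 change was -3.76 ± 0.52 (adjusted p = 0.00281, and 0.0568 with replicates 1 and 2 summed). Dio2, which encodes the deiodinase that makes the active hormone, had 13, 11 and 8 counts in WT against 46, 32 and 18 in TCKO. This was a log2 fold change of 1.62 ± 0.41 (adjusted p = 0.0323), but the call was lost in 5 of the 6 fits with a library left out. Slc7a8, an amino acid and thyroid hormone carrier gene, had 247, 312 and 69 counts in WT against 43, 36 and 24 in TCKO (log2 fold change -2.53 ± 0.50, adjusted p = 0.0126). The call was lost without WT replicate 2, with an adjusted p of 0.053, and that of Slc7a5 without WT replicate 1 (0.0546). Over the whole thyroid hormone list of 16, 12 were tested, and 3 were lower and 2 higher, with a median log2 fold change of -0.30.

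Esr1 (chromosome 10, 4611593 to 5005614), the gene of estrogen receptor alpha, was near the detection limit. It had 7, 8 and 7 counts in WT against 2, 1 and 2 counts in TCKO. The 3 WT libraries were at 0.80 to 0.85 CPM, above the limit of 3 counts in each library, and the TCKO libraries were below it, at 0.12 to 0.23 CPM. The ratio of summed counts, TCKO over WT, was 0.234 (exact 95% counting interval 0.0694 to 0.634). Without the filter on low counts the log2 fold change was -2.02, with an adjusted p of 0.0771, which did not pass. Esr2, the other estrogen receptor gene, had 10, 14 and 1 counts in WT against 6, 5 and 9 in TCKO. Of 4 tested genes in an estrogen list of 14, of which 13 were in the table, 1 was lower, against 8.63% of all tested genes. The lower gene was Gper1, a membrane estrogen receptor gene, with 158, 164 and 45 counts in WT against 29, 23 and 7 in TCKO. The fitted log2 change was -2.56 ± 0.57 (adjusted p = 0.0195), and the call was lost without WT replicate 1 (0.075), WT replicate 2 (0.076) or TCKO replicate 2 (0.061).

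Over all 8 lists together, 147 genes were listed and 99 were tested. Of these, 11 were lower and 12 higher, with 7 and 5 called over 2-fold, and the median log2 fold change was -0.08. Over all tested genes 8.63% were lower and 9.07% higher, 3.19% and 3.16% by over 2-fold. With the replicate block 14 were lower and 19 higher, but that fit called more genes over the whole table too (1011 against 878 over 2-fold). Its shares of all tested genes at an adjusted p under 0.05 were not counted. Of the 12 genes called over 2-fold, Areg, Lrp2 and Tsc22d3 also passed when replicates 1 and 2 were summed, and the other 9 did not.

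The genes whose log2 CPM followed each of the 3 lower receptor genes most closely over the 6 libraries were found among 9255 genes with a mean of at least 100 counts, as a description. For Lepr these were Zeb2, Tmem8b and Ndrg4 (Pearson r from 0.996 to 0.999), and all 3 were lower in TCKO. For Rxra they were Sardh, Chac1 and Herpud1 (r from 0.985 to 0.995). For Nr3c1 they were Adamts5, Ly6a and Lamtor2 (each with r of 0.998). The points share the genotype difference and the libraries, and 262, 117 and 375 genes had an r of at least 0.95 with Lepr, Rxra and Nr3c1.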

How the data were processed

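Poly(A) RNA of primary calvarial osteoblasts was sequenced in 6 libraries, 3 WT and 3 TCKO, with groups and replicate numbers taken from the sample titles. The deposited values are raw counts per gene, which the authors made by aligning reads to GRCm38 with STAR 2.7.0e and counting with featureCounts 2.0.0. The library kit marks strand, but the strand setting of the counting is not given in the sources used here. Symbols were matched to 55144 of 55471 genes (99.4%). All columns had a sample, and no row lacked a gene name.

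The test was that of edgeR 4.0.16 (R 4.3.3), with filterByExpr, TMM factors and a quasi-likelihood fit over all 6 libraries without covariates, and DESeq2 1.42.0 was an alternative. The 13826 tested genes were adjusted together by the Benjamini-Hochberg method. Calls used an adjusted p under 0.05, with and without a fold change over 2. Other alternatives changed the scaling, the filter, the block, the batch and the libraries left in. Same-numbered libraries deviated together from their group means (correlations across genes 0.204, 0.214 and 0.347), so the replicate number was used as a block. Replicates 1 and 2 correlated about as much across numbers (0.188 and 0.225). These values set replicate 3 apart but do not show that replicate 1 pairs with 1, or 2 with 2. Named were all 9 genes, Tet1 to Tet3, list genes called over 2-fold, fixed partners of each receptor, genes overlapping a member, and the 3 genes most alike to each member that passed. Other genes under 2-fold, such as the chaperones, Ncoa3 and Hdac4, and marker genes given as examples, were named after their values were seen. Some list genes that the rule names are not reported here. The members and gene lists were chosen with earlier results of these data known.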

Additional observations from a re-analysis of the deposited data

How the results depend on the processing

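Lepr kept its direction and its call in all 18 alternatives, and 1 of the 9 genes was called over 2-fold in each. The number of the 9 genes with an adjusted p under 0.05, 3 as reported, was 5 without the low-count filter, 5 with a batch term for replicate 3, 1 with replicates 1 and 2 summed, 1 with this sum and a replicate block, and 7 without both replicate 3 libraries, where the near-identical replicates 1 and 2 set the spread. It lay between 1 and 5 when 1 library was left out, and was 4 with the replicate block, under which Thra was added, and 4 with DESeq2. The share of all tested genes passing at this threshold was 17.7% in the reported fit. It was not counted in the alternatives, so these numbers have no background there. Over the whole table, 878 genes were called over 2-fold, 543 with a mean of at least 50 counts, 1011 with the replicate block, 324 when replicates 1 and 2 were summed and 595 to 1049 with 1 library left out. The sign of the Pth1r log2 fold change turned to 0.23 without both replicate 3 libraries, and lay between -0.36 and 0.21 with 1 library left out. That of Vdr lay between -0.080 and 0.60 when 1 library was left out, the lowest without TCKO replicate 3. Rxra lost its call in 4 alternatives and Nr3c1 in 5, whereas Ghr gained one in 6 and Thra in 5. The cause of these shifts was not tested. Depth limited Esr1, Pthlh and other genes with under about 10 counts per library.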

Other observations

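Among 33 other hormone receptor genes, 15 were tested, and 2 were lower and 0 higher by edgeR, against 8.63% and 9.07% of all tested genes. Of the 15, 5 had an unadjusted p under 0.05, and DESeq2 found 1 lower and 2 higher. The shares of all tested genes by these rules were not counted. With the replicate block Avpr1a, a vasopressin receptor gene, was higher (adjusted p = 0.0288). Glp1r, the gene of the receptor for the gut hormone GLP-1, had 10, 12 and 13 counts in WT against 3, 2 and 4 in TCKO. The ratio of summed counts was 0.265 (exact 95% counting interval 0.112 to 0.563, adjusted p = 0.0161), but the adjusted p was 0.0652 with DESeq2, and the call was lost without WT replicate 2 (0.0524), TCKO replicate 1 (0.0639) or TCKO replicate 2 (0.0664).

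The insulin and IGF1 receptor genes did not pass, with log2 fold changes of -0.16 for Insr (adjusted p = 0.419) and -0.04 for Igf1r (0.849). The median log2 fold change of the 15 tested genes was -0.09.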
